A study of Mus musculus with 6 samples.

Results

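The ADAM and ADAMTS metalloproteases, the ADAMTS-like proteins and their inhibitors were followed in the injured sciatic nerve of male and female mice. Members were taken by name alone, as the genes with a protein-coding transcript whose symbol is Adam, Adamts, Adamtsl or Timp followed by a number, or Reck. The rule found 63 of 54287 genes, 34 of them ADAM, 19 ADAMTS, 5 ADAMTS-like (ADAMTSL) and 4 TIMP genes, and Reck. The libraries hold poly-A RNA of the proximal nerve stump, taken 24 h after the left sciatic nerve of C57BL/6 mice aged 6 to 8 weeks had been transected at mid-thigh (axotomy). There were 3 libraries from axotomized males and 3 from axotomized females, each made from the pooled nerves of 2 mice, and the comparison asks which transcripts differ between the sexes. All 6 libraries come from transected nerves, and without sham-operated ones, which were not analysed here, no value measures a response to injury. A pool hides the spread between its 2 mice, so that the p-values measure the spread between pools.

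ADAMs are membrane-anchored proteases of the cell surface, and several of them act as sheddases, which cut the outer part off growth factors, cytokines, receptors and adhesion molecules. ADAMTS proteases are secreted and cut matrix proteins such as versican, procollagens and von Willebrand factor, while the ADAMTS-like proteins share their matrix-binding parts but have no protease domain. TIMPs are secreted proteins that block matrix metalloproteases (MMPs), ADAMs and some ADAMTS enzymes. In peripheral nerve, the cutting of neuregulin 1 by Adam17 is known to restrain myelination by Schwann cells in the mouse, and the Notch pathway depends on cuts made by Adam10.

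What makes these proteins proteases is a zinc-binding site of 11 codons, in which 3 histidines hold the zinc ion and a glutamate takes part in the cut. The 33 coding bases of this site are printed for the 2 proteases that differed between the sexes (Adam9 and Adamts9), for the sheddases Adam10 and Adam17 and for the 2 most abundant ADAMTS members (Adamts1 and Adamts5), since the site sets the proteases apart from the members without it and codon 8 differs within the ADAMTS family. Capitals mark the codons of the first histidine and the glutamate, the second histidine, the residue at codon 8 and the third histidine. Sequences were read from GENCODE M39 transcripts on GRCm39.
Adam9 (chromosome 8, 25480342 to 25480374, minus strand, exon 11): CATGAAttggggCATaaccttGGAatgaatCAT
Adam10 (chromosome 9, 70661578 to 70668867, plus strand, exons 9 and 10): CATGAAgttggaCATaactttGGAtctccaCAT
Adam17 (chromosome 12, 21386733 to 21386765, minus strand, exon 11): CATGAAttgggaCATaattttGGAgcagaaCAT
Adamts1 (chromosome 16, 85596079 to 85596433, minus strand, exons 3 and 4): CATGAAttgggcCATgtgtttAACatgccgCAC
Adamts5 (chromosome 16, 85674903 to 85684714, minus strand, exons 2 and 3): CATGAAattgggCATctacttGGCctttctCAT
Adamts9 (chromosome 6, 92882266 to 92885474, minus strand, exons 8 and 9): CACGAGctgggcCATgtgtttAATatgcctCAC
Codon 8 encoded glycine (GGA or GGC) in the 3 ADAMs and in Adamts5, and asparagine (AAC or AAT) in Adamts1 and Adamts9. Over all members the site was found in 39, in 34 of them with glycine and in 5, all of them proteoglycan-cleaving ADAMTS, with asparagine. The other ADAMTS members with the site carried glycine, like every ADAM with it. It was found in 9 of 9 sheddases and 12 of 22 testis and sperm ADAMs. None of the 3 ADAMs known to lack protease activity (Adam11, Adam22 and Adam23), none of the 5 ADAMTS-like genes and none of the 5 inhibitors matched it. Adamts8, counted with the proteoglycan-cleaving group, matched neither form.

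Libraries held 49158283 to 69848769 estimated counts. The Y-linked Ddx3y and Eif2s3y had a CPM (counts scaled to the normalised library size) of 40.2 to 58.8 in males, against 0 in females 1 and 2 and 2.21 and 2.34 CPM in female 3, and the female-specific Xist stood at 2.86 CPM in male 1, against 418 CPM or more in females. Xist stood at 0.106 and 0.312 CPM in males 2 and 3. The Y-linked Kdm5d had 0.840, 0.904 and 1.32 CPM in females 1, 2 and 3, and Uty 0.352, 0.656 and 1.26 CPM, against 16.7 to 18.4 and 7.94 to 12.1 CPM in males. Low counts of these genes were thus found in all females, with the most in female 3, and the most Xist among the males was in male 1. The tissue was that of the label: the summed 10 markers of myelinating Schwann cells reached 53012 to 62919 CPM in males and 22736 to 30232 CPM in females, without overlap. All 10 had a positive log2 fold change (male minus female), and the edgeR test described below called 6 of them at an adjusted p under 0.1. Markers listed for cell types outside the nerve core, or for central cells, were also present, and which cells they came from was not tested. The 9 skeletal muscle markers summed to 3.86 to 620.0 CPM in males and 30.5 to 513 CPM in females (2 of 8 tested called higher in females). The 6 adipocyte markers summed to 51.9 to 275 CPM in males and 84.8 to 619 CPM in females. Of these 6, 0 were called with edgeR and 1 with DESeq2. An unadjusted p under 0.05 with edgeR was found for 2, against 20.7% of all genes. The 8 central neuron markers summed to 20.0 to 42.2 CPM in males and 5.84 to 11.1 CPM in females, with 7 of 8 called higher in males. Most of each sum was Snap25, at 13.9, 24.0 and 27.7 CPM in males, against 4.30, 5.11 and 8.83 CPM in females. The 7 oligodendrocyte markers summed to 11.1 to 30.7 CPM in males and 2.56 to 4.68 CPM in females, with 4 of 6 tested called higher in males. The part of these differences in the results below was not tested, and fewer cells of a type and less RNA per cell cannot be told apart in these libraries.

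Levels between genes were compared in TPM, a scaled transcript abundance corrected for transcript length. The TPM of a gene sums its coding and noncoding transcripts. Together the 63 members held 2195 ± 61.3 TPM in males and 2182 ± 91.0 TPM in females (SD, n = 3 each). Most of this lay in the inhibitors: the 4 TIMPs made up 68.3 ± 1.34% of the members' TPM in males and 67.4 ± 4.59% in females. Timp1, an inhibitor known to be induced in injured tissues, was first with 844, 1063 and 767 TPM in males, against 1084, 786 and 1214 TPM in females. Timp3, which binds to the matrix and inhibits Adam17 and the aggrecan-cleaving Adamts4 and Adamts5, held 388, 321 and 429 TPM in males, against 251, 337 and 239 TPM in females. The third was Timp2, which both inhibits MMPs and helps Mmp14 to activate pro-Mmp2, with 222, 199 and 269 TPM in males, against 160.2, 206 and 138 TPM in females. The TPM of the sexes overlapped for Timp1, Timp2 and Timp3 alike. Among the proteases Adam10 stood highest, with 161, 132 and 188 TPM in males, against 120.2, 148 and 105 TPM in females. Adam15, Adam9 and Adam8 followed among the ADAMs, with means of 97.9 ± 25.5, 52.1 ± 4.35 and 33.7 ± 17.0 TPM in males, against 86.4 ± 2.58, 78.3 ± 8.85 and 63.5 ± 33.6 TPM in females. Although the ranges of neighbours overlapped across the 6 libraries for Timp3 and Timp2 and for Timp2 and Adam10, the order within a library was the same in all 6, with Timp1 above Timp3, Timp3 above Timp2 and Timp2 above Adam10.

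**Figure D1:**
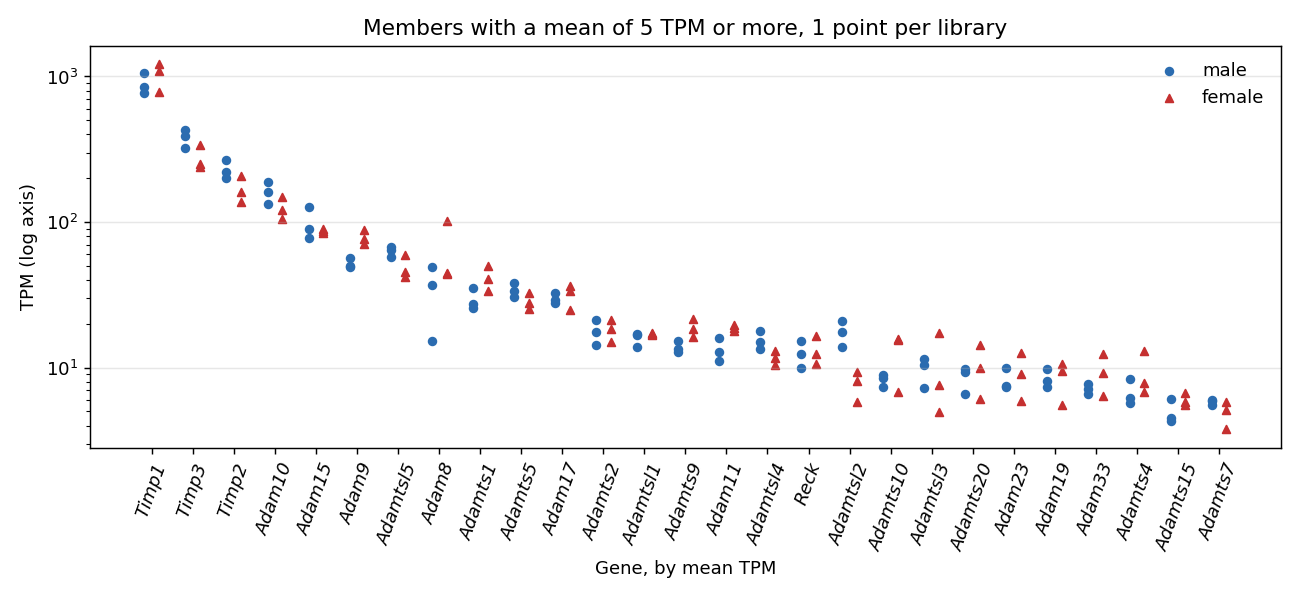
TPM (log axis) of the 27 members with a mean of 5 TPM or more, ordered by mean; blue circles are the 3 male libraries and red triangles the 3 female libraries. Timp1 lay between 767 and 1214 TPM in all 6 libraries, above the other members, and Adamtsl2 lay between 13.9 and 21.0 TPM in males and between 5.80 and 9.36 TPM in females.

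The secreted proteases were less abundant than the sheddases. The 9 sheddase ADAMs summed to 394 ± 7.41 TPM in males and 408 ± 54.0 TPM in females, and the 7 proteoglycan-cleaving ADAMTS to 98.3 ± 9.23 TPM in males and 115 ± 12.1 TPM in females. The 3 procollagen-processing ADAMTS summed to 20.6 ± 3.88 TPM in males and 21.8 ± 4.38 TPM in females. The ADAMTS-like genes held 121 ± 6.30 TPM in males and 95.3 ± 18.8 TPM in females. Adamtsl5 alone held 63.0 ± 5.17 TPM of this in males and 48.9 ± 9.20 TPM in females, and only 12.0 to 23.3% of its reads lay in protein-coding transcripts. Of the 22 ADAMs known mainly from testis and sperm, the sum was 4.51 ± 0.517 TPM in males and 4.07 ± 1.41 TPM in females, mostly from Adam1a, and the 6 markers of male germ cells summed to 0.76 to 1.24 CPM in males and 0.57 to 0.86 CPM in females, with Prm2 at 0. The libraries of the sexes overlapped in each of these 5 groups, and in the ADAMTS-like sum female 2 lay within the range of the males and females 1 and 3 below it.

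Sexes were compared on the counts of 18413 genes that passed a filter on low values, and a gene was called where its p from the edgeR quasi-likelihood test, after Benjamini-Hochberg adjustment over all of them, was under 0.1. Of the 63 members, 43 passed the filter, 36 of them with a mean of 1 CPM or more. The 20 others were 17 testis and sperm ADAMs and Adamts13, Adamts16 and Adamts18, of which 12 had no count in any library and the rest at most 12 counts in 1 library. The test called 3 members (6.98% of the 43), 1 higher in males and 2 higher in females. Over all genes 5.33% were called, 3.83% higher in males and 1.49% higher in females, so that the members' share lay near that of all genes. Leaving out 1 library moved the count to 4, 4 and 0 without males 1, 2 and 3 and to 0, 1 and 8 without females 1, 2 and 3. The share called of all genes moved as well in these fits, to 3.43, 4.05 and 0.037% without males 1, 2 and 3 and to 0.00526, 1.74 and 13.7% without females 1, 2 and 3. With a skeletal muscle score and with an adipocyte score as covariate, 2 and 1 members were called, and 2.67 and 0.744% of all genes, against 5.33% without a covariate. The DESeq2 Wald test, an alternative fit, called 10 members and 13.3% of all genes. At an unadjusted p under 0.05 there were 13 members (30.2%), against 20.7% of all genes. Male and female libraries did not overlap in CPM for 10 members (23.3%), 5 with the males above (Adam10, Adamtsl2, Adamtsl5, Timp2 and Timp3) and 5 with the females above (Adam9, Adam15, Adamts1, Adamts9 and Adamtsl1), against 25.4% of all genes, 13.9% with the males and 11.6% with the females above. Positive log2 fold changes (male minus female) were found for 18 members and negative ones for 25, with a median of -0.06, against a median of -0.03 over all genes. Among the 16 ADAMTS members tested, 13 had a negative value, with a median of -0.33, but only 1 of them was called. Negative values were also found for 9810 of the 18413 genes tested. The ADAMTS values were negative for 13 of 16 also with library size alone and with DESeq2 size factors, scalings of the same libraries. With a skeletal muscle score as covariate they were negative for 10 of 16.

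**Figure D2:**
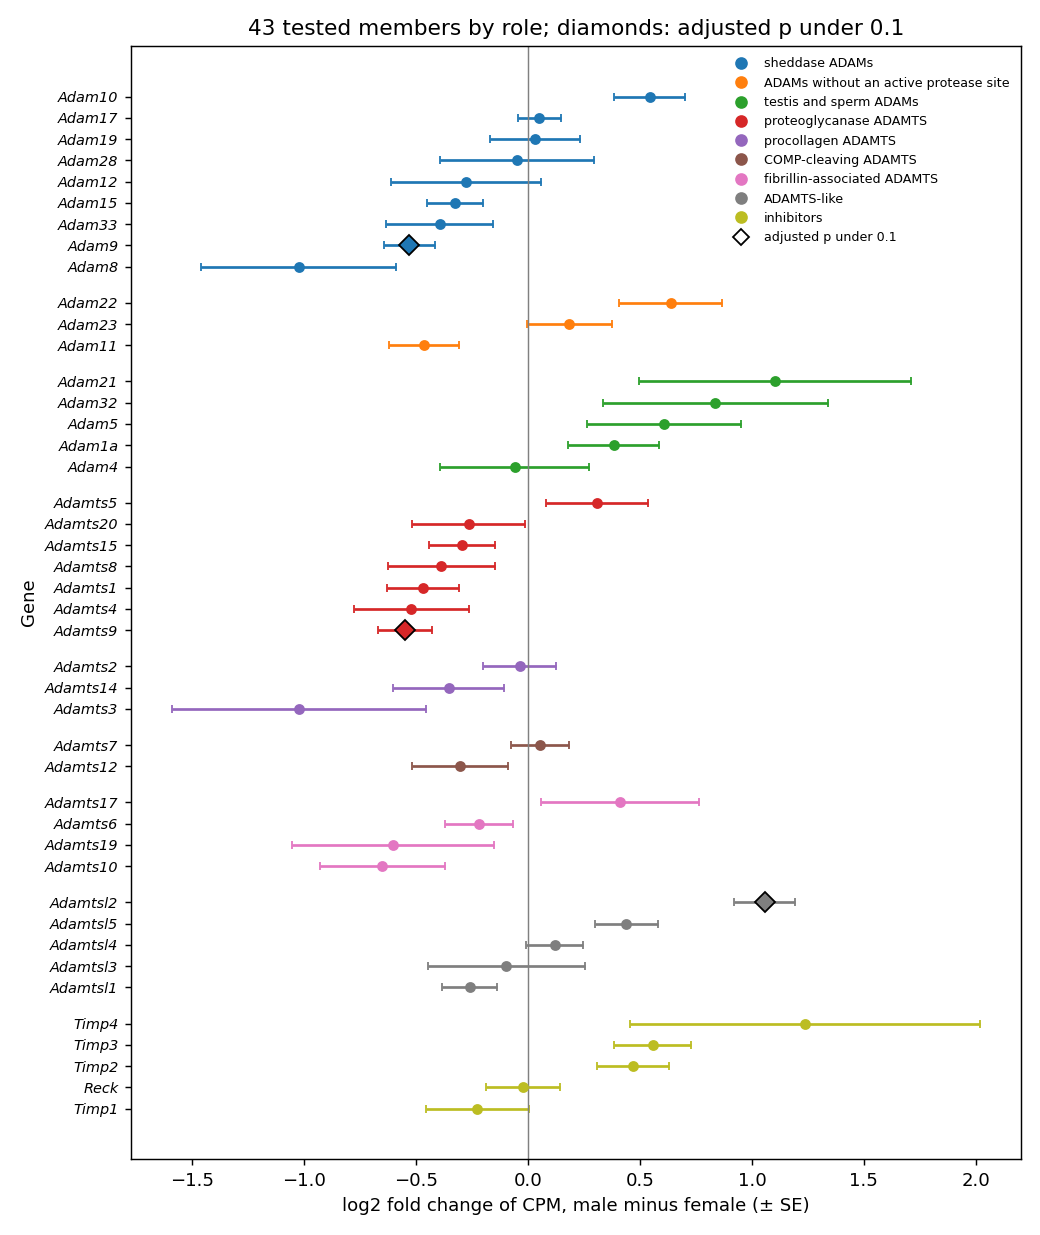
Log2 fold change of CPM, male minus female, with SE for the 43 members tested, ordered by role; diamonds mark the 3 members with an adjusted p under 0.1. Adamtsl2 lay at 1.06, Adam9 at -0.53 and Adamts9 at -0.55, while Timp4 had the widest SE among the inhibitors.

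The member that was higher in males, Adamtsl2, encodes a secreted glycoprotein of the matrix that is known to bind fibrillin 1 and the latent TGF-beta binding protein Ltbp1, and whose mutations cause geleophysic dysplasia in humans. The gene lies on chromosome 2 (26949885 to 26998993, plus strand, GRCm39) and spans Mymk on the opposite strand. Its counts were 14.6, 14.0 and 14.6 CPM in males, against 6.91, 7.73 and 6.14 CPM in females. All males lay above all females, and the males lay close together. Males were 2.08-fold higher, with a log2 fold change of 1.06 ± 0.14 (adjusted p = 0.0332, edgeR, n = 3 each). The call was kept without female 3 (adjusted p = 0.0441) and without male 1 (0.0458), and was lost without male 3 (0.129) and without female 1 (0.145), where 7 genes and 1 gene of all those tested were called. The Schwann cell markers given above differed in the same direction.

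Only part of these Adamtsl2 reads lay in its protein-coding transcript. Salmon assigned it 57.9, 45.1 and 46.4% of the reads in males and 47.8, 48.9 and 62.3% in females, and the remainder to retained-intron and processed transcripts. With protein-coding transcripts alone the log2 fold change was 1.02 (adjusted p = 0.0455, edgeR). Its coding transcript Adamtsl2-201 held 2.79, 2.28 and 2.38 TPM in males, against 1.07, 1.30 and 1.17 TPM in females, and the retained-intron transcript Adamtsl2-203 held 5.19, 7.61 and 6.22 TPM in males, against 2.66, 2.85 and 2.00 TPM in females. The sexes did not overlap in either transcript.

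The promoters of Adamtsl2 and Adamts9 are shown because they are the called members with an entry in the RefSeq promoter table, which covers 250 bases before and 50 after the start of 37 of the 63 members (GRCm38.p6). Capitals mark the GC box (GGGCGG or CCGCCC, the 2 strands of one motif) and the TATA box (TATAAA or TTTATA).
Adamtsl2 (chr2:27079129-27079428, plus strand): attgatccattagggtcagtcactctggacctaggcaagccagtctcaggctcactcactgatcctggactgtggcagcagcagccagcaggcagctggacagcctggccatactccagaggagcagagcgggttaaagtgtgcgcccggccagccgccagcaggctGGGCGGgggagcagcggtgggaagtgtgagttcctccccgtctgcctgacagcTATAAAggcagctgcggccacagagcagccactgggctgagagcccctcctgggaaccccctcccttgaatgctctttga
Adamts9 (chr6:92943485-92943784, minus strand): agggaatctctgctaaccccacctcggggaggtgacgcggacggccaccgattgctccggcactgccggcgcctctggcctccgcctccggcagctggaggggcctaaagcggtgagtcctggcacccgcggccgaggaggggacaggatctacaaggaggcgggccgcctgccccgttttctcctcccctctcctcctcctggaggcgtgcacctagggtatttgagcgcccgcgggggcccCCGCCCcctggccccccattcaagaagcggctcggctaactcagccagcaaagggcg
Adamtsl2 held a TATA box at -30 and a GC box at -83 from the RefSeq start, and Adamts9 a GC box at -7. These starts were not matched to the ends of the gene spans given on GRCm39, and may lie inside them. Among the 32851 promoters listed, 13.6% held a TATA box and 35.7% a GC box. Members had 39 promoters in the table, since Adam19 has 3, and of these 6 (15.4%) held a TATA box and 21 (53.8%) a GC box. The AP-1 motif (TGACTCA or TGAGTCA) was in 3 promoters of members (7.69%) and in 5.202% of all, and the CRE (TGACGTCA, its own reverse complement) in 0 of the 39 and in 1.79% of all. These matches describe letters in a window, and no binding was measured.

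Adam9 was the sheddase that was higher in females. It is a widely expressed surface protease known to release heparin-binding EGF, and its loss causes a retinal dystrophy in humans. Its counts were 158, 139 and 136 CPM in males, against 216, 188 and 222 CPM in females. Every female lay above every male, with females 1.44-fold higher and a log2 fold change of -0.53 ± 0.11 (adjusted p = 0.0681, edgeR). The coding transcript Adam9-204 held 97.6 to 99.8% of its TPM in each library, in males and females alike. The call was kept without female 3 (0.0692) and without male 1 (0.0967), and lost without each of the 4 other libraries, with adjusted p of 0.105 to 0.276. With a skeletal muscle score as covariate the log2 fold change was -0.64 (adjusted p = 0.131), and with an adipocyte score it was -0.61 (0.149), so that the call was lost while the fold change was larger. The gene (chromosome 8, 25439626 to 25507096, minus strand) overlaps the start of Tm2d2 on the opposite strand.

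Adam10, the main sheddase of Notch and of the amyloid precursor protein, was higher in every male library but not called with edgeR. It had 449.6, 401 and 522 CPM in males, against 260.2, 343 and 339 CPM in females. The groups did not overlap, and the log2 fold change of 0.54 ± 0.16 had an adjusted p of 0.123 (edgeR). It was past the threshold without female 3 (0.0977), with no filter on low counts (0.0982) and with the DESeq2 Wald test (0.0209, log2 fold change 0.55). These fits called 13.7, 5.26 and 13.3% of all genes. The adjusted p of Adam10 was 0.360 without male 3, 0.341 without female 1 and 0.413 with an adipocyte score, fits that called 0.037, 0.00526 and 0.744% of all genes. Adam17, which sheds TNF and neuregulin 1, had 102, 91.8 and 90.6 CPM in males, against 87.9, 98.0 and 88.6 CPM in females. The sexes overlapped. Its log2 fold change was 0.05 ± 0.10 with an adjusted p of 0.805, and turned to -0.04 with a transcript length offset and to -0.005 without male 1.

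Adam8, a protease of leukocytes and activated glia, varied widely between libraries. It had 75.0, 91.9 and 32.8 CPM in males, against 215, 88.1 and 104 CPM in females. Male 3 was lowest and female 1 highest, male 2 lay above female 2, and the log2 fold change of -1.03 ± 0.44 was not called (adjusted p = 0.237, edgeR). The 6 neutrophil markers summed to 282 to 894 CPM in males and 296 to 987 CPM in females, and the 7 macrophage markers to 732 to 1051 CPM in males and 836 to 1679 CPM in females; their part in the spread of Adam8 was not tested. Adam15, a surface protease with a disintegrin domain, had 102, 121 and 114 CPM in males, against 161, 135 and 127 CPM in females. These counts did not overlap, but the log2 fold change of -0.33 ± 0.13 (adjusted p = 0.200) became 0.21 with a transcript length offset, and in TPM the sexes overlapped. Adam15-209, a noncoding processed transcript, held 16.7, 34.9 and 16.5% of the TPM of Adam15 in males and 3.29, 13.0 and 24.9% in females.

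Adam12, Adam19, Adam28 and Adam33 complete the sheddases, and their log2 fold changes lay between -0.40 and 0.03, with adjusted p of 0.386 to 0.950 (edgeR). Adam28 was at most 0.745 CPM in any library. Among the ADAMs without an active protease site, Adam22 is a receptor for the secreted protein Lgi4, which is required for peripheral myelination in the mouse. It had 17.9, 14.3 and 21.7 CPM in males, against 10.5, 15.2 and 9.02 CPM in females. Male 2 lay below female 2, and the log2 fold change of 0.64 ± 0.23 was not called (adjusted p = 0.178). Adam11 lay at -0.47 and Adam23 at 0.18 on the log2 scale (adjusted p = 0.158 and 0.620). Of these 3 genes 0 were called with edgeR or limma-voom. An unadjusted p under 0.05 was found for 2, against 20.7% of all genes. DESeq2, which called 13.3% of all genes, called 2. Of the 22 testis and sperm ADAMs the 5 tested, among them Adam1a at 7.20 ± 1.53 CPM in male and 5.53 ± 0.732 CPM in female libraries, were not called either (adjusted p of 0.329 or more), nor by DESeq2 or limma-voom, and 0 of them had an unadjusted p under 0.05.

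**Figure D3:**
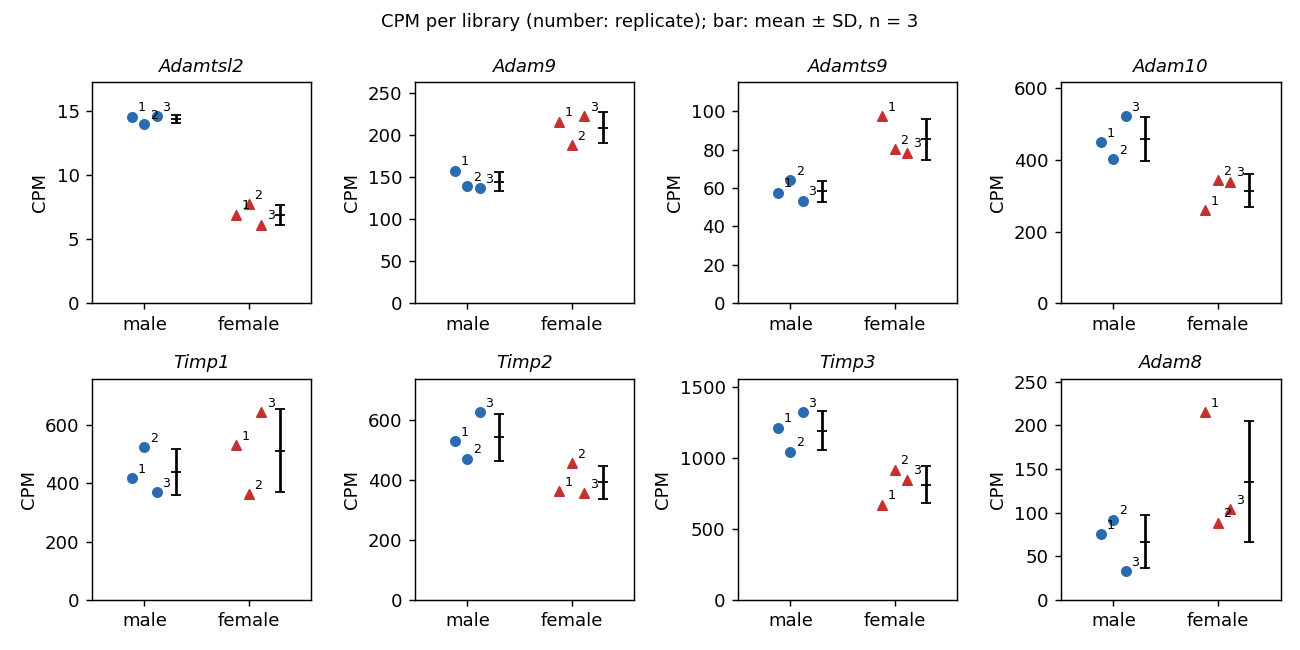
CPM in each library for 8 members, with replicate numbers beside the points and the mean ± SD (n = 3) as bars, males left of females. The sexes did not overlap for Adamtsl2, Adam9, Adamts9, Adam10, Timp2 and Timp3, and overlapped for Timp1 and Adam8.

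Adamts9, the second member that was higher in females, encodes a secreted protease that cuts versican and aggrecan. The gene lies on chromosome 6 (92749680 to 92920520, minus strand, GRCm39). Its counts were 57.5, 64.0 and 53.3 CPM in males, against 97.4, 80.1 and 78.4 CPM in females. Female 1 was highest and all females lay above all males, with females 1.46-fold higher and a log2 fold change of -0.55 ± 0.12 (adjusted p = 0.0705, edgeR). Without female 3 the adjusted p was 0.0539 and without male 2 it was 0.0891, while without each of the other libraries the call was lost (0.133 to 0.270). The call was also lost with a transcript length offset, where the log2 fold change was -0.39 (adjusted p = 0.128), with a skeletal muscle score, where it was larger at -0.60 (0.207), and with an adipocyte score, where it was -0.44 (0.267).

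The transcripts behind the Adamts9 total also differed among libraries. Adamts9-201 held 23.3, 11.9 and 15.1% of its TPM in males and 61.3, 55.3 and 19.8% in females. Adamts9-205, also protein-coding, held 51.8, 55.3 and 47.3% in males and 6.55, 11.2 and 45.0% in females. Female 3 was near the males in both shares although its total was on the side of the females. The aggrecan-cleaving Adamts4 gave a like picture, with Adamts4-201 at 41.0, 34.03 and 20.5% of its TPM in males and 4.21, 4.14 and 37.9% in females. Salmon splits reads among overlapping transcripts by a model, and these shares were not tested.

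**Figure D4:**
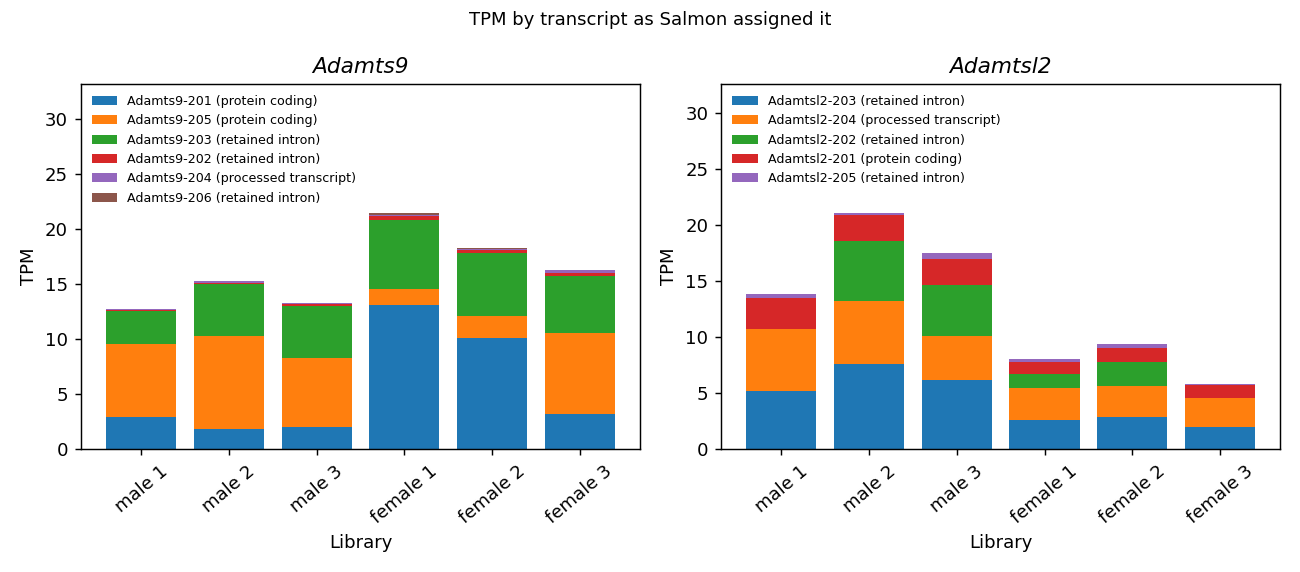
TPM of each transcript of Adamts9 and Adamtsl2 in the 6 libraries, stacked, males left of females. In Adamts9 the share of Adamts9-201 was 11.9 to 23.3% in males and 19.8 to 61.3% in females, and in Adamtsl2 each library held coding and noncoding transcripts.

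Adamts1 and Adamts5 were the most abundant ADAMTS members per length, and neither was called with edgeR. Adamts1, which cuts versican and is known as an inhibitor of vessel growth, had 124, 93.0 and 87.3 CPM in males, against 161, 129.7 and 131 CPM in females. Females lay above males throughout (log2 fold change -0.47 ± 0.16, adjusted p = 0.162, edgeR). The adjusted p was past the threshold with the DESeq2 Wald test (0.0776) and without male 1 (0.0964, with a value of -0.64). It was highest without female 1, at 0.446. Adamts5, a main aggrecan-cleaving enzyme of cartilage, had 247, 205 and 211 CPM in males, against 133, 154 and 248 CPM in females. Female 3 exceeded every male while females 1 and 2 lay below them (log2 fold change 0.31 ± 0.23, adjusted p = 0.478, edgeR). Without female 3, a fit that called 13.7% of all genes, the adjusted p was 0.0551, past the threshold, with a value of 0.62. The adjusted p was 0.983 with a skeletal muscle score and 0.989 with an adipocyte score. Over 18 alternatives the value lay between 0.008 and 0.62. Adamts4, Adamts8, Adamts15 and Adamts20 lay between -0.52 and -0.27 and were not called (adjusted p of 0.295 to 0.589).

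Of the procollagen-processing enzymes, which remove the amino-terminal propeptide of fibrillar collagens, Adamts2 had 111, 72.7 and 92.3 CPM in males, against 92.8, 104 and 86.2 CPM in females. The sexes overlapped (log2 fold change -0.04 ± 0.16, adjusted p = 0.917, edgeR). Adamts3, which also activates the lymphatic growth factor Vegfc, had 2.11, 0.337 and 0.877 CPM in males, against 2.52, 2.59 and 1.70 CPM in females. Males 2 and 3 lay below the females and male 1 above female 3, and its value of -1.02 ± 0.57 was not called (adjusted p = 0.347). Adamts14 lay at -0.36. Adamts7 and Adamts12, known to cut the cartilage protein COMP, lay at 0.05 and -0.30, with adjusted p of 0.850 and 0.456.

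Among the ADAMTS members linked to fibrillin microfibrils (Adamts6, Adamts10, Adamts17 and Adamts19), Adamts10 had 22.9, 15.7 and 21.7 CPM in males, against 38.4, 37.7 and 18.8 CPM in females. Females 1 and 2 were high and female 3 lay among the males, and the log2 fold change was -0.65 ± 0.28 (adjusted p = 0.239, edgeR). Without female 3, a fit that called 13.7% of all genes, the adjusted p of Adamts10 was 0.0491, and with a skeletal muscle score it was 0.941. Only 15.6 to 32.5% of its reads lay in protein-coding transcripts, and with those alone its log2 fold change was 0.02. The other 3 lay between -0.60 and 0.41, with adjusted p of 0.447 to 0.546.

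Beside Adamtsl2, the most abundant ADAMTS-like genes per length were Adamtsl5, Adamtsl1 and Adamtsl4, matrix proteins of which Adamtsl4 is known to bind fibrillin and to hold the lens in place in humans. Adamtsl5 had 106, 82.5 and 103 CPM in males, against 62.8, 81.4 and 70.9 CPM in females. Males lay above females, male 2 only just above female 2, and the log2 fold change of 0.44 ± 0.14 was not called (adjusted p = 0.142, edgeR), while it was with the DESeq2 Wald test (0.0631) and without male 2 (0.0894). Protein-coding transcripts held only 12.0 to 23.3% of its reads, and with those alone the value was 0.03. Adamtsl1 had 68.6, 55.8 and 65.5 CPM in males, against 71.4, 70.1 and 85.9 CPM in females. Here females lay above males, at -0.26 ± 0.12 (adjusted p = 0.276), and with protein-coding transcripts alone, which held 22.4 to 68.7% of its reads, the value was -1.05 with an adjusted p of 0.0997, past the threshold. Adamtsl4 had 35.4, 31.7 and 31.4 CPM in males, against 31.7, 33.3 and 25.8 CPM in females. It overlapped between the sexes (0.12 ± 0.13, adjusted p = 0.633), as did Adamtsl3 (-0.10 ± 0.35).

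None of the 5 inhibitors was called with edgeR. An unadjusted p under 0.05 was found for 2 of them, Timp2 and Timp3, against 20.7% of all genes. Timp3 had 1211, 1041 and 1318 CPM in males, against 667, 916 and 845 CPM in females, and all males lay above all females (log2 fold change 0.56 ± 0.17, adjusted p = 0.139, edgeR). Timp2 had 530.3, 471 and 626 CPM in males, against 363, 457 and 356 CPM in females, again without overlap (0.47 ± 0.16, adjusted p = 0.163). The DESeq2 Wald test, which called 13.3% of all genes, called both, with adjusted p of 0.0153 for Timp3 and 0.0482 for Timp2. Limma-voom called neither. In TPM, which takes up the effective length in each library, female 2 lay above male 2 for both genes. The X-linked Timp1 ran with no order by sex, at 419, 526 and 371 CPM in males, against 532, 362 and 644 CPM in females. Female 3 was highest and female 2 lowest, so that the females spanned the males (log2 fold change -0.23 ± 0.23, adjusted p = 0.613). Its 2 transcripts, both protein-coding, were close to equal in every library, Timp1-201 at 51.0 to 51.5% of its TPM in males and 49.4 to 51.2% in females.

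Timp4 was scarce, with 0.163, 0.851 and 0.780 CPM in males, against 0.508, 0.177 and 0.0795 CPM in females. The sexes overlapped, and its log2 fold change of 1.24 ± 0.78 carried a wide error (adjusted p = 0.404, edgeR). Reck, a membrane-anchored MMP inhibitor that also serves as a receptor part for Wnt7 signals in brain vessels, had 34.7, 27.8 and 39.3 CPM in males, against 30.4, 40.9 and 32.1 CPM in females. The sexes overlapped, with a log2 fold change of -0.02 ± 0.16 (adjusted p = 0.951).

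Timp1, Timp3 and Timp4 each lie inside a synapsin gene on the opposite strand (Syn1, Syn3 and Syn2). The library kit marks the strand of a read, and whether strand was used in counting is not given in the sources used here. Syn1 averaged 7.35 ± 1.77 CPM in male and 4.81 ± 0.499 CPM in female libraries, and Syn3 averaged 1.37 ± 0.593 CPM in male and 1.07 ± 0.507 CPM in female libraries, far below Timp1 and Timp3. Syn2, at 2.32 ± 1.08 CPM in male and 0.714 ± 0.177 CPM in female libraries, was higher in males (adjusted p = 0.0829, edgeR) and exceeded Timp4.

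The partners of these enzymes were read from 5 lists of 79 genes, of which 72 were tested and 9 were called (12.5%, against 5.33% of all genes), 7 higher in males and 2 higher in females. No partner gene was called without male 3, without female 1 or with an adipocyte score as covariate, fits in which 0.037, 0.00526 and 0.744% of all genes were called. Without male 1 and without female 2, 3 and 2 partner genes were higher in males and 1 and 2 higher in females, and without female 3 the counts were 8 and 8. Of the 13 genes that carry, license or activate the sheddases, 12 were tested and 3 (25%) were higher in males, against 3.83% of all genes. Tspan15 and Tspan17, tetraspanins that escort Adam10 to the cell surface, had log2 fold changes of 0.47 ± 0.11 and 0.60 ± 0.14 (adjusted p = 0.0881 and 0.0817, edgeR). Tspan15 had 113, 92.1 and 103 CPM in males, against 67.4, 76.5 and 79.2 CPM in females, and Tspan17 had 144, 143 and 167 CPM in males, against 85.1, 97.8 and 118 CPM in females. In both genes each male exceeded each female. The tetraspanins Tspan5 (0.25 ± 0.11, adjusted p = 0.237, edgeR), Tspan14 (0.06 ± 0.11, 0.785) and Tspan33 (-0.12 ± 0.30, 0.855), also listed, were not called. Tspan10 was not tested. Pcsk6, a proprotein convertase of the family that removes prodomains, had 69.8, 58.9 and 74.4 CPM in males, against 41.8, 47.6 and 41.0 CPM in females (0.64 ± 0.12, adjusted p = 0.0471). Its relative Furin was not called (-0.59 ± 0.17, adjusted p = 0.113), nor were the Adam17 cofactors Rhbdf1 and Rhbdf2 (adjusted p = 0.787 and 0.990).

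Of the 25 proteins known to be shed, all were tested and 2 were called (8%, against 5.33% of all genes). Tgfa, an EGF receptor ligand released by Adam17, was higher in males, with 92.3, 90.0 and 97.9 CPM in males, against 52.9, 66.4 and 74.4 CPM in females (0.53 ± 0.13, adjusted p = 0.0919, edgeR). Axl, a receptor tyrosine kinase whose outer part is shed, was higher in females, with 313, 271 and 267 CPM in males, against 386, 399.6 and 387 CPM in females (-0.46 ± 0.11, adjusted p = 0.0881). The sexes did not overlap in either gene. Neuregulin 1 (Nrg1) and the neurotrophin receptor gene Ngfr were not called (-0.21 ± 0.24 and -0.10 ± 0.15, adjusted p = 0.652 and 0.748).

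Among 14 substrates of ADAMTS enzymes, 13 were tested and 2 were called (15.4%, against 5.33% of all genes). The 2 called, Bcan and Ncan, belong to the lecticans (aggrecan-like proteoglycans) and are known from central nervous matrix, which does not hold for all lecticans. Bcan (brevican) had 1.25, 2.00 and 2.36 CPM in males, against 0.215, 0.124 and 0.366 CPM in females, and Ncan (neurocan) had 0.564, 0.638 and 1.03 CPM in males, against 0.215, 0.142 and 0.175 CPM in females. Both were scarce and higher in males in each library, with log2 fold changes of 2.97 ± 0.45 and 2.06 ± 0.39 (adjusted p = 0.0345 and 0.0510, edgeR). The central neuron and oligodendrocyte markers given above, also scarce, differed in the same direction. Of the 6 astrocyte markers Aqp4, Slc1a2 and Slc6a11 were called higher in males, with means of 3.40, 19.6 and 3.63 CPM in males, against 0.0407, 2.54 and 0.230 CPM in females, while Aldh1l1, Slc1a3 and Gja1 were not called and the sum of the 6 overlapped (167 to 193 CPM in males and 163 to 183 CPM in females). Neither the cells that these transcripts came from nor their part in the result was tested. The versican gene Vcan, the substrate shared by Adamts1, Adamts4, Adamts5 and Adamts9, stood at 170.4 ± 41.3 CPM in male and 309 ± 88.9 CPM in female libraries and was not called (-0.86 ± 0.24, adjusted p = 0.115), although its libraries did not overlap.

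Of 7 genes that bind or act with the inhibitors 6 were tested and none was called with edgeR. An unadjusted p under 0.05 was found for 2 (33.3%), against 20.7% of all genes. DESeq2, which called 13.3% of all genes, called 2. Adgra2, the Wnt7 coreceptor that works with Reck, stood at 69.7 ± 6.93 CPM in male and 91.6 ± 7.16 CPM in female libraries (-0.39 ± 0.11, adjusted p = 0.112, edgeR). Lrp1, an endocytic receptor that clears TIMPs and ADAMTS enzymes, and the Timp1 receptor gene Cd63 overlapped between the sexes (-0.34 ± 0.21 and -0.18 ± 0.17). The inhibitors' other targets, the MMPs, held 20 genes, of which 16 were tested and 2 were called (12.5%, against 5.33% of all genes). Mmp15, a membrane-anchored MMP, was higher in males, with 316, 253 and 323 CPM in males, against 191, 221 and 190.4 CPM in females (0.57 ± 0.13, adjusted p = 0.0829). Mmp12, the elastase of macrophages, was higher in females, with 2.05, 2.46 and 1.27 CPM in males, against 7.17, 4.24 and 5.50 CPM in females (-1.55 ± 0.30, adjusted p = 0.0553). Mmp2 and Mmp14, the pair that Timp2 joins, were not called (adjusted p = 0.652 and 0.635).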

How the data were processed

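Per the labels, poly-A RNA was made into stranded TruSeq libraries and sequenced in pairs. Trimmomatic 0.39, Salmon 1.5.2 and MultiQC 1.9 are named in the submitters' processing notes. The authors deposited for each transcript an estimated count, not normalised and not always whole, and a TPM, scaled for effective length. Salmon divides reads shared between transcripts or near-identical genes (Adam1a and Adam1b, Adam6a and Adam6b, Adam26a and Adam26b) by a model, so these are uncertain. Both were summed per gene symbol for protein-coding genes and per gene for the rest, and counts were rounded.

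In R 4.3.3, edgeR 4.0.16 was used with filterByExpr, TMM and the quasi-likelihood F test with sex as the only term. Log2 fold changes are male minus female, their SE was taken from the F statistic, and CPM uses the TMM library size. Alternatives were DESeq2 1.42.0, limma-voom (limma 3.58.1), 1 surrogate variable (sva 3.50.0), other scalings and filters, a transcript length offset, the replicate number as a block, marker scores as covariates and each library left out; protein-coding transcripts alone were added after seeing the data. Libraries of a sex differed beyond sampling noise (chi-square per degree of freedom of 44.7 to 134).

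The members and the lists were chosen with earlier results of these data known. Values per library are given for called members, the TIMPs and Reck, Adam10 and Adam17, the 3 members of each family with the highest TPM and the 5 with the largest fold change at 1 CPM or more; of partner lists, for called genes. Vcan, Furin and other uncalled partners, the transcripts of Adamts4 and Adam1a were chosen after their values were seen.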

Additional observations from a re-analysis of the deposited data

How the results depend on the processing

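Of the alternative values for the 21 members named one by one, 330 kept direction and side of the threshold, 18 lost a call, 16 gained one and 13 changed sign. Only the 3 called members could lose a call. Of 18 alternatives each, Adam9 lost it in 7, Adamts9 in 8 and Adamtsl2 in 3, so that most values that kept their side belong to members not called. The count of members higher in males was 1 in the edgeR fit and 6 with the DESeq2 Wald test, 2 with no filter on low counts, 3 with 1 surrogate variable and 2 with a skeletal muscle score; that of members higher in females was 2 in the edgeR fit and 4 with DESeq2, 1 with a transcript length offset, 0 with a skeletal muscle or adipocyte score, 0 at an adjusted p under 0.05 and 4 with protein-coding transcripts alone. For partner genes higher in males the count of 7 became 11 with DESeq2, 3 with a skeletal muscle score, 0 with an adipocyte score and 2 at an adjusted p under 0.05; for those higher in females the count of 2 became 10 with DESeq2, 4 with no filter, 0 with an adipocyte score, 0 at an adjusted p under 0.05 and 4 with protein-coding transcripts alone. Over all genes DESeq2 called 2440 (13.3%), a skeletal muscle score left 492 (2.67%) and an adipocyte score 137 (0.744%), against 981 (5.33%) with edgeR. The share called of all genes was 5.26% with no filter and 5.32% with 1 surrogate variable. It was 5.32% with a transcript length offset and 6.56% with protein-coding transcripts alone. Leaving out 1 library at a time gave 0 to 3 members higher in males, 0 to 5 higher in females, 0 to 8 partner genes higher in males and 0 to 8 higher in females, and 653, 764 and 7 genes in all without males 1, 2 and 3 and 1, 330 and 2607 without females 1, 2 and 3. Among values near 0, these changed sign: Reck was 0.00104 with a mean of 1 CPM or more, 0.22 with a muscle score, 0.0204 with coding transcripts alone and -0.14 to 0.14 with 1 library left out; Adam17 was -0.0367 with a length offset and -0.00545 to 0.11 with 1 library left out; Adamts2 was 0.0163 with a length offset, 0.0933 with a muscle score and -0.20 to 0.14 with 1 library left out. Larger values changed sign too: Adam15, at -0.33 in the edgeR fit, was 0.21 with a length offset, and Adamts10, at -0.65, was 0.0169 with coding transcripts alone. The cause of these changes was not tested.

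The replicate numbers in the labels do not state a shared day or litter, and same-numbered libraries did not deviate together (correlations of -0.04, -0.30 and -0.29), and no male library correlated best with the female library of its own number. With the replicate number as a block 0 members and 0 partner genes were called in either direction, and 56 of all genes. With 3 pools per sex, a gene with few counts such as Timp4 could differ without being seen at this depth, and estimated counts of transcripts carry an assignment error that the tests do not include.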
